A study of Mus musculus with 23 samples.

Results

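Pdlim3, Eya1, Mfap4, Tox3 and Foxa2 are genes used as markers of the Sonic hedgehog (SHH) type of medulloblastoma. They were described here in mouse cerebellar tumours of models in which Ptch1 was disrupted by different routes. The 5 genes were picked because earlier results of these data had shown their levels to vary between the Ptch1 models, and every probe set annotated to 1 of these symbols and to no other gene was taken. That gave 7 of the 45101 probe sets on the array and 5 of the 18194 genes. Eya1 had 3 probe sets and each of the others had 1. Differences between the Ptch1 models are therefore given below as values with no test, and tests are given for comparisons with the reference groups. The data did not bear out the choice for Tox3, whose level in the deposited values was nearly the same in every Ptch1 model tumour.

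RNA of 23 samples was hybridised to Affymetrix mouse expression arrays, and each value below is a log2 signal after robust multi-array averaging (RMA), so that a difference of 1 is a 2-fold difference. The Ptch1 models were CRISPR-Ptch1 tumours, tumours of mice with a germline Ptch1 disruption (Ptch1+/-, 4 tumours, labelled Ptc+/-), and MERP tumours. For CRISPR-Ptch1, Cas9 and a guide RNA against Ptch1 were delivered to the cerebellum. Delivery was either by electroporation of the embryo in wild-type mice (EP, 2 tumours) or by transfection of newborn Trp53-/- mice (TF, 1 tumour). In MERP tumours Ptch1 was deleted in cells that express Atoh1, also called Math1 (Atoh1-CreER;Ptch1 fl/fl, 5 tumours). Reference groups were 4 GTML tumours, which arise from overexpression of Mycn, 3 non-neoplastic samples of granule neuron precursors (GNPs, taken at postnatal days 4 to 7), and 4 adult cerebella. The Ptch1+/- mice carry their lesion in every cell, the MERP deletion was limited to Atoh1-expressing cells, the electroporated plasmid also reached other progenitors of the ventricular zone, and only the TF tumour arose on a Trp53-null background, so that the route of delivery and the loss of Trp53 cannot be told apart in it. All samples are labelled CD1, whereas transfection was done in C57BL/6N mice according to the methods, and the ages of the tumour-bearing mice are not given in the labels. The study lists separate mice for the CRISPR tumours, and for the other groups the labels do not say whether numbered samples came from separate animals, so p-values reflect the spread among the arrays of a group, which may be technical.

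SHH drives the proliferation of granule neuron precursors in the outer layer of the developing cerebellum. PTCH1 is its receptor and holds the membrane protein Smoothened in check, so that without PTCH1 the GLI transcription factors stay active, and tumours that follow keep many features of the precursors. The 5 genes sit at different places relative to that pathway. FOXA2 is a forkhead transcription factor that specifies the floor plate of the neural tube in response to SHH, EYA1 is a phosphatase and cofactor of sine oculis homeobox transcription factors, TOX3 is an HMG-box nuclear protein, PDLIM3 is a PDZ and LIM domain protein of the actin cytoskeleton, best known from the Z-disc of muscle, and MFAP4 is an extracellular protein of microfibrils and elastic fibres.

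The start-site sequences of the 2 genes that differed most between the Ptch1 models are shown so that the regions in front of them can be read beside their levels. RefSeq start-site windows (GRCm38.p6) were at hand for 3 of the 5 genes, Pdlim3, Tox3 and Foxa2, the last with 3 start sites. The 250 bases before the Pdlim3 start (chr8:45885237-45885486, plus strand) and before the outermost Foxa2 start (chr2:148046970-148047219, minus strand) read, 5′ to 3′:
Pdlim3: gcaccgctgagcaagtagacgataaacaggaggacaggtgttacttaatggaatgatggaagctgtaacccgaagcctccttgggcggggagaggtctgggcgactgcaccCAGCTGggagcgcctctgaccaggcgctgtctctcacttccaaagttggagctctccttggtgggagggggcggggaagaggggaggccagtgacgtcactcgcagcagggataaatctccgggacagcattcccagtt
Foxa2: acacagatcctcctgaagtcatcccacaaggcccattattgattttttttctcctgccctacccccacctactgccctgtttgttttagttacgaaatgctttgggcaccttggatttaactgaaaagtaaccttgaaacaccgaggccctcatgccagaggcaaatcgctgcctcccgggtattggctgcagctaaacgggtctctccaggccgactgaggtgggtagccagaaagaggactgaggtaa
Capitals mark the letters CAGCTG, a form of the E-box that basic helix-loop-helix factors such as ATOH1 bind. They stood once in the Pdlim3 window, once in the Tox3 window and in none of the 3 Foxa2 windows, against 13% of all 32851 windows of this length. The GLI consensus GACCACCCA, searched on both strands, was in none of the 5 windows and in 0.225% of all windows. Its shorter core CCACCC, also part of the consensus, stood 2 times in each of the inner Foxa2 windows, in neither of the other genes, and in 28.1% of all windows. The forkhead letters TGTTTAC were in none of the 5 windows and in 3.17% of all. A match, or its absence, describes these letters in these windows and nothing more.

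Pdlim3 split the Ptch1 models more widely than nearly any gene on the array. Its log2 signal was 12.16, 11.65, 11.45, 11.16 and 11.37 in the 5 MERP tumours and 10.92 in the TF tumour. In the EP tumours it was 7.25 and 7.16, and in the Ptch1+/- tumours 7.66, 5.91, 6.26 and 6.07. MERP and TF were thus high and EP and Ptch1+/- low, with no array in between. The MERP mean of 11.56 ± 0.38 (SD, n = 5) lay 5.09 above the Ptch1+/- mean of 6.47 ± 0.80 (SD, n = 4), which is 34.0-fold, and the range of the 3 model means, CRISPR taken as EP and TF together, stood at the 99.98th percentile of all genes, whose median range was 0.43. The TF tumour was 13.2-fold above the EP mean, so the 2 kinds of CRISPR tumour did not share a level. Only 1.62% of all genes were at least 2-fold higher in TF than in both EP tumours, and 2.90% were at least 2-fold lower than both.

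The reference groups placed these levels. GNPs gave 9.13, 9.21 and 9.21, below every MERP tumour and the TF tumour and above every EP and Ptch1+/- tumour. GTML tumours gave 6.09, 5.24, 6.98 and 7.65, and adult cerebellum 5.84, 6.74, 6.21 and 6.15. From high to low the group means ran MERP, TF, GNPs, EP, GTML, Ptch1+/- and adult cerebellum. The first 3 were separated from each other and from all that followed, whereas the ranges of EP and GTML, EP and Ptch1+/-, GTML and Ptch1+/-, and each of the last pair with adult cerebellum overlapped. For scale, the lower quartile of all probe sets lay between 4.40 and 4.61 on the 23 arrays, so that even the low Pdlim3 groups were above it.

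**Figure D1:**
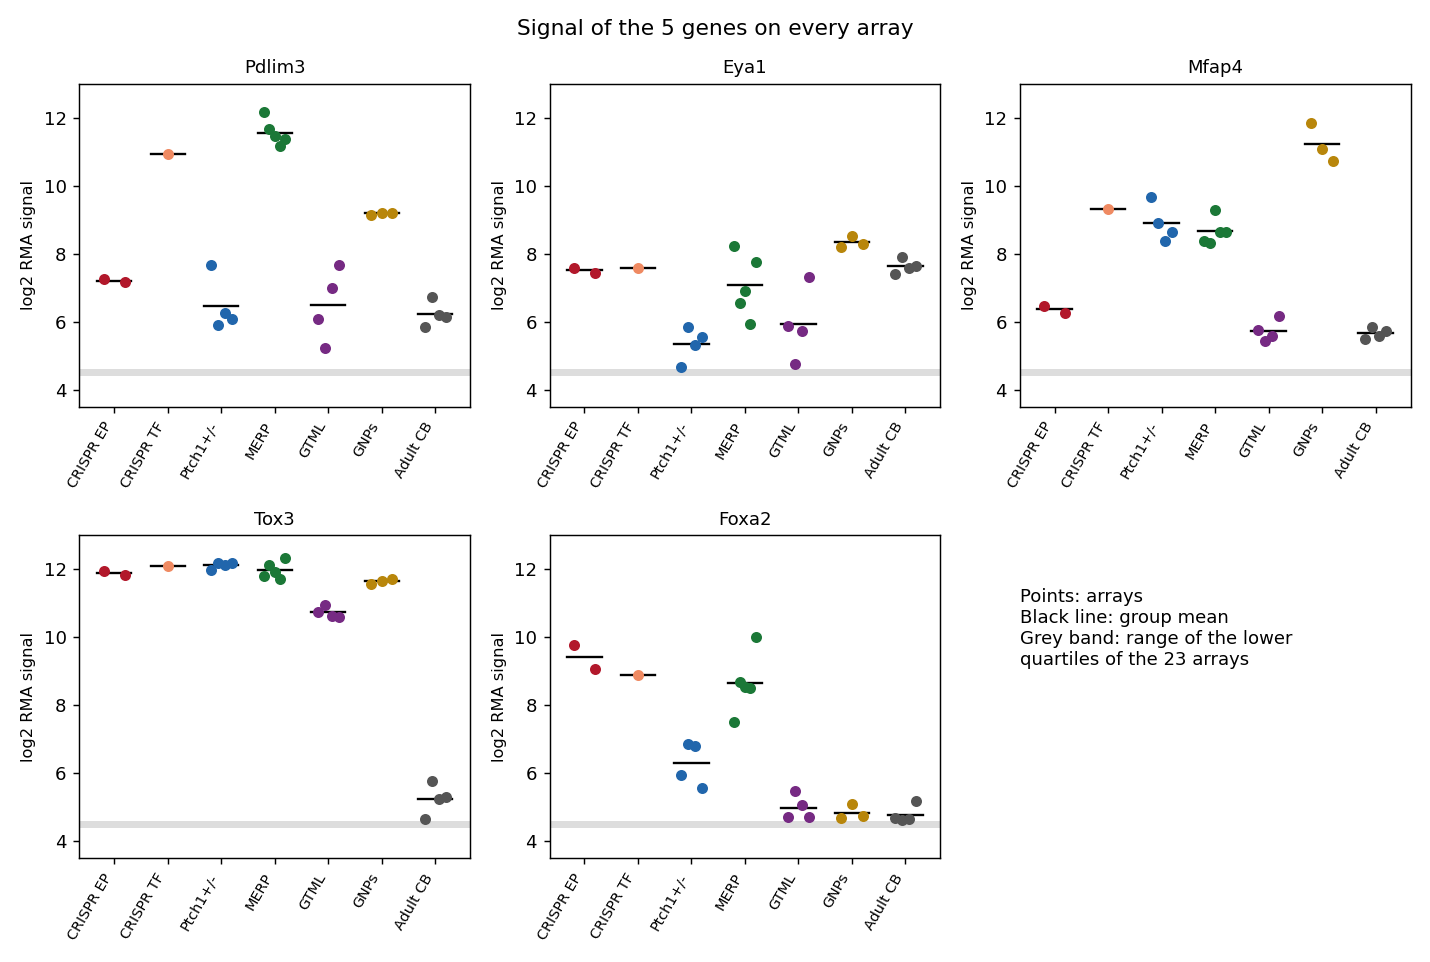
Log2 RMA signal (vertical axis) of each gene on all 23 arrays by group (horizontal axis), with 1 point per array, a black line at the group mean and a grey band at the range of the arrays' lower quartiles (4.40 to 4.61). Pdlim3 is high in MERP and TF, Mfap4 is low in EP alone among the Ptch1 models, Eya1 and Foxa2 are lowest in Ptch1+/- among them, and Tox3 is level across them, lower in GTML and lowest in adult cerebellum.

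Mfap4 also set the EP and TF tumours apart, but with a different grouping of the germline and conditional models. The EP tumours had 6.47 and 6.27. The TF tumour had 9.31, the Ptch1+/- tumours 9.66, 8.90, 8.38 and 8.63, and the MERP tumours 8.38, 8.31, 9.28, 8.65 and 8.65. TF, Ptch1+/- and MERP thus shared a level, with the TF tumour inside the range of the Ptch1+/- tumours, and both EP tumours lay below all 10 other arrays of the Ptch1 models. The TF tumour was 7.66-fold above the EP mean. The range of the 3 model means, 1.55, stood at the 95.3th percentile of all genes, and it reached that height through the EP tumours, since the Ptch1+/- and MERP means differed by 0.24.

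Among the references, GNPs had by far the highest Mfap4 signal, with 11.85, 11.07 and 10.72. GTML tumours, with 5.75, 5.42, 5.59 and 6.18, and adult cerebellum, with 5.48, 5.86, 5.59 and 5.71, overlapped each other and lay below every Ptch1 model array. The order of the means was GNPs, TF, Ptch1+/-, MERP, EP, GTML and adult cerebellum, where TF and Ptch1+/-, Ptch1+/- and MERP, and GTML and adult cerebellum overlapped. The EP tumours therefore stood next to GTML in this order, but above it on every array.

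Eya1 was lowest in the Ptch1+/- tumours. Its brightest probe set gave 4.68, 5.85, 5.32 and 5.55 there, 7.58 and 7.44 in the EP tumours and 7.57 in the TF tumour. The MERP tumours spread over more than 2 log2 units, with 8.24, 6.54, 6.91, 5.92 and 7.76, and the lowest of them was just above the highest Ptch1+/- tumour. The CRISPR mean lay 2.18 above that of Ptch1+/- and the MERP mean 1.72 above it, at the 98.7th percentile of all genes for the range of the 3 model means. EP and TF did not separate, as the TF value fell between those of the 2 EP tumours.

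Eya1 was not particular to tumours or precursors. GNPs had 8.18, 8.52 and 8.29, adult cerebellum had 7.41, 7.91, 7.59 and 7.63, and the GTML tumours had 5.86, 4.76, 5.74 and 7.31. The means fell from GNPs over adult cerebellum, TF, EP, MERP and GTML to Ptch1+/-. Of the neighbours in this order only GNPs and adult cerebellum did not overlap. The other Eya1 probe sets carried little signal. Over the 12 Ptch1 model arrays 1 of them ranged from 4.30 to 5.17 and the other from 4.20 to 6.03, close to the arrays' lower quartiles, and on the second the Ptch1+/- tumours (4.61 to 4.94) lay above all 3 CRISPR tumours (4.20 to 4.51). With the mean of the 3 probe sets the CRISPR minus Ptch1+/- difference shrank from 2.18 to 0.61 and that of MERP minus Ptch1+/- from 1.72 to 0.78.

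**Figure D2:**
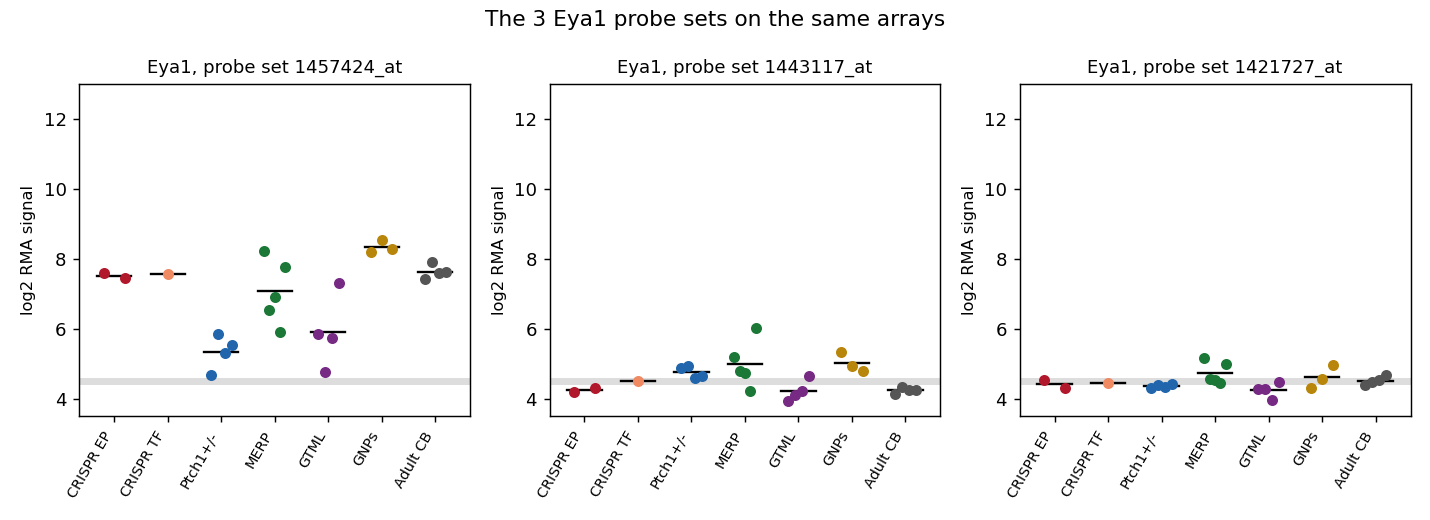
Log2 RMA signal (vertical axis) of the 3 Eya1 probe sets on all 23 arrays by group (horizontal axis), with points, mean lines and grey band as in the plot of all 5 genes. The left probe set spans 4.68 to 8.52 and sets Ptch1+/- below the other Ptch1 models, whereas the other probe sets stay between 3.93 and 6.03. On the middle probe set Ptch1+/- lies above EP and TF. On the right one its mean is again lowest among the Ptch1 models (4.36, EP 4.43), but its arrays overlap EP.

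Foxa2 was present in the Ptch1 model tumours and near the lower quartile of the arrays elsewhere. The EP tumours had 9.77 and 9.08, the TF tumour 8.89, and the MERP tumours 7.51, 8.69, 8.56, 8.51 and 9.999. In the Ptch1+/- tumours it was 5.96, 6.85, 6.82 and 5.56, below every other Ptch1 model tumour. The CRISPR mean was 2.95 and the MERP mean 2.35 above that of Ptch1+/-, the former 7.71-fold and the latter 5.11-fold, and the range of the 3 means stood at the 99.7th percentile of all genes. Foxa2 gave 4.70, 5.11 and 4.75 in GNPs, 4.71, 5.49, 5.06 and 4.73 in GTML tumours and 4.68, 4.62, 4.66 and 5.19 in adult cerebellum, and these 3 groups overlapped pairwise. Every Ptch1 model array was above all 11 reference arrays, if narrowly so for the lowest Ptch1+/- tumour. Since the references lie near the floor of the array, where RMA compresses differences, folds against them are likely to be understated. The order of the means was EP, TF, MERP, Ptch1+/-, GTML, GNPs and adult cerebellum, and MERP overlapped both EP and TF, which did not overlap each other.

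Tox3 did not vary in this way. It was 11.95 and 11.82 in the EP tumours, 12.09 in the TF tumour, 11.98, 12.20, 12.12 and 12.19 in the Ptch1+/- tumours and 11.81, 12.12, 11.93, 11.72 and 12.32 in the MERP tumours. All 12 arrays thus lay within 0.60 of each other, and the range of the 3 model means, 0.17, was at the 16.1th percentile, below the median of all genes. GNPs were slightly lower (11.56, 11.65 and 11.72), GTML tumours lower again (10.75, 10.96, 10.62 and 10.60), and adult cerebellum gave 4.65, 5.79, 5.25 and 5.29. Among the genes described here Tox3 was thus the marker whose level the Ptch1 models shared in the deposited values. The sameness depended on scaling. After every array was centred on its gene median, CRISPR minus Ptch1+/- was -0.65 and MERP minus Ptch1+/- was -0.42.

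Counted over the 5 genes, the arrays of MERP lay wholly above those of Ptch1+/- for 3 (Pdlim3, Eya1 and Foxa2; 18.3% of all genes did so) and wholly below for none (3.56% of all genes). CRISPR lay wholly above Ptch1+/- for 2 (Eya1 and Foxa2; 27.6% of all genes) and below for none (9.81%). CRISPR lay wholly below MERP for Pdlim3 (8.95% of all genes) and above for none (9.90%). The genes were chosen on these contrasts, so nothing is read from the counts. The 4 varying genes divided the tumours along 3 lines, which were MERP and TF against EP and Ptch1+/- for Pdlim3, EP against the rest for Mfap4, and Ptch1+/- against the rest for Eya1 and Foxa2. For Eya1 the line held on the brightest probe set only, where the lowest MERP tumour was just above Ptch1+/-. Within MERP, the tumour with the highest Foxa2 (9.999) also had the highest Tox3 (12.32), and the tumour with the lowest Foxa2 (7.51) had the highest Pdlim3 (12.16) and Eya1 (8.24).

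Some properties of the arrays moved with these groups. The median over the gene table was 6.94 to 7.22 on the Ptch1+/- arrays, 7.22 to 7.39 on the MERP arrays and 7.46 to 7.55 on the CRISPR arrays, and the gap between 3′ and 5′ probe sets of control transcripts, a measure of RNA integrity, was 1.12 to 1.51, 0.69 to 1.65 and 0.55 to 0.64, respectively. The Ptch1+/- arrays, lowest for Eya1 and Foxa2, were therefore also lowest in the gene median. After every array was centred on that median, MERP minus Ptch1+/- was 4.81 for Pdlim3, 1.45 for Eya1 and 2.08 for Foxa2, CRISPR minus Ptch1+/- was 1.70 for Eya1, 2.47 for Foxa2 and -2.02 for Mfap4, and for Tox3 the 2 differences became -0.42 and -0.65. The part of RNA integrity in these differences was not tested.

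Against the references, the 3 models were taken as the mean of their 3 group means and tested with limma over all genes. The genes were picked on differences between the models, but some of their levels against the references were known as well, so the p-values are no independent support. Compared with GTML tumours, 4 of the 5 genes were higher in the Ptch1 models, where 21.9% of all genes were called higher and 20.5% lower at an adjusted p under 0.05. Foxa2 was higher by 3.07 on the log2 scale (SE 0.30, limma adjusted p = 4.72e-08), Mfap4 by 2.56 (SE 0.37, adjusted p = 8.70e-06) and Tox3 by 1.29 (SE 0.14, adjusted p = 1.81e-07). The arrays of these 3 did not overlap with GTML (7.41% of all genes lay wholly higher and 5.72% wholly lower). Pdlim3 was higher by 2.33 (SE 0.50, limma adjusted p = 0.000712), but that mean covers tumours of 2 kinds, since EP and Ptch1+/- overlapped GTML and MERP and TF were well above it. Eya1 differed by 0.74 (95% interval -0.01 to 1.48, limma adjusted p = 0.108), and without the brightest of the GTML tumours by 1.20 (limma adjusted p = 0.00680) or without the dimmest of the MERP tumours by 0.83 (limma adjusted p = 0.0483).

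Compared with adult cerebellum, where 28.1% of all genes were called higher and 27.5% lower, the same 4 genes were higher and Eya1 was lower. Tox3 was higher by 6.77 (SE 0.14, limma adjusted p = 8.59e-20), or 109-fold, with the adult arrays close to the lower quartile, and Tox3, Mfap4 and Foxa2 did not overlap with adult cerebellum (17.6% of all genes lay wholly higher and 18.7% wholly lower). Foxa2 was higher by 3.28 (SE 0.30, adjusted p = 5.35e-09), Mfap4 by 2.64 (SE 0.37, adjusted p = 2.57e-06) and Pdlim3 by 2.59 (SE 0.50, adjusted p = 0.000135) in the same limma fit. The means of Foxa2, Mfap4 and Pdlim3 cover unlike tumours. Foxa2 lay 1.51 above adult cerebellum in Ptch1+/- and 3.86 to 4.63 above it in the other models. Mfap4 lay 0.71 above it in EP and 2.99 to 3.64 above it in the other models. For Pdlim3, MERP lay 5.33, TF 4.69 and EP 0.97 above adult cerebellum without overlap, whereas Ptch1+/- lay 0.24 above it and overlapped. Eya1 lay 2.28 below adult cerebellum in Ptch1+/-, with no overlap. In MERP it lay 0.56, in EP 0.12 and in TF 0.06 below, and all of these overlapped adult cerebellum. As the mean of the models, Eya1 was lower by a log2 difference of -0.98 (SE 0.36, limma adjusted p = 0.0242). That call was lost with the mean of the 3 probe sets (-0.18, limma adjusted p = 0.482), with TF as the sole CRISPR tumour (-0.97, adjusted p = 0.0568) and without adult cerebellum 2 (-0.89, adjusted p = 0.0767) or 4 (-0.98, adjusted p = 0.0516).

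Compared with GNPs, the normal counterpart, 2 of the 4 genes tested were lower and none higher, where 16.0% of all genes were called lower and 6.41% higher. Mfap4 was lower by a log2 difference of -2.91 (SE 0.42, limma adjusted p = 1.70e-05), with no overlap (8.27% of all genes lay wholly lower), and Eya1 by -1.68 (SE 0.40, adjusted p = 0.00373). Tox3 was above every GNP sample in every Ptch1 model tumour (2.62% of all genes lay wholly higher), with a difference of 0.38 (95% interval 0.05 to 0.70, limma adjusted p = 0.0934), and it passed the threshold when only the groups compared were fitted (adjusted p = 0.0324), with array weights (0.0259), after centring on the gene median (difference 0.66, adjusted p = 0.00566) and without adult cerebellum 1 (0.0375) or 2 (0.0488). The Pdlim3 mean differed by -0.36 (95% interval -1.53 to 0.82, limma adjusted p = 0.703), which averages tumours above and below GNPs. With TF as the sole CRISPR tumour its sign turned (0.47, adjusted p = 0.480), and with array weights it was -0.80 (adjusted p = 0.0157). The Foxa2 mean was 3.22 above GNPs, given without a test because this difference was known before. By model, Foxa2 lay 1.45 above GNPs in Ptch1+/- and 3.80 to 4.57 above them in the others. Mfap4 lay 4.84 below GNPs in EP and 1.91 to 2.56 below them in the other models.

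**Figure D3:**
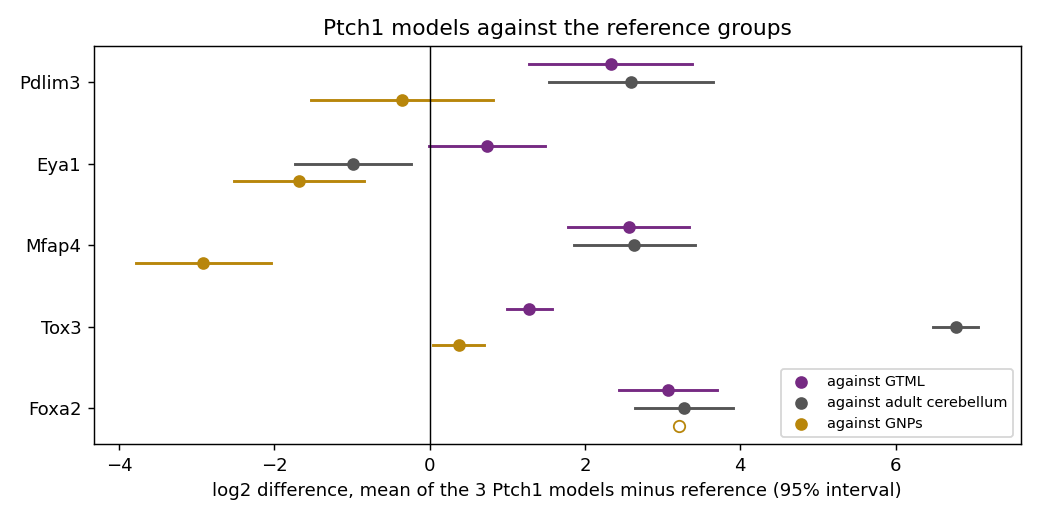
Log2 difference (horizontal axis) between the mean of the 3 Ptch1 models and GTML, adult cerebellum or GNPs for each gene (vertical axis), with 95% intervals from the limma fit. The open circle, Foxa2 against GNPs (3.22), has no interval because it was not tested, Tox3 against adult cerebellum reaches 6.77, and Mfap4 lies right of 0 against GTML and adult cerebellum (2.56 and 2.64) and left of it against GNPs (-2.91).

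The references also differed among themselves in these genes. GNPs were above adult cerebellum for Tox3 by 6.40 (limma adjusted p = 4.59e-17), Mfap4 by 5.55 (adjusted p = 4.18e-09) and Pdlim3 by 2.95 (adjusted p = 0.000738), where 29.1% of all genes were called higher and 21.0% lower. Eya1 differed by 0.70 (limma adjusted p = 0.239) and Foxa2 by 0.06 (adjusted p = 0.919). The Eya1 difference passed the threshold in 2 alternatives of processing (lowest limma adjusted p = 0.000524). Tox3 and Mfap4 were thus higher in the GNP samples and in every Ptch1 model tumour than in adult cerebellum. Pdlim3 was higher in the GNP samples and in the mean of the Ptch1 models, but its Ptch1+/- arrays overlapped adult cerebellum. The GNP samples also had the highest fibroblast, endothelial and choroid plexus signal, given below. GTML tumours were below GNPs in 4 of the 5 genes, where 25.7% of all genes were called lower and 16.1% higher, by -5.48 for Mfap4 (limma adjusted p = 1.40e-08), -2.69 for Pdlim3 (0.00249), -2.41 for Eya1 (0.000288) and -0.91 for Tox3 (0.000419). Against adult cerebellum, GTML was higher for Tox3 by 5.49 (limma adjusted p = 1.22e-16; 27.3% of all genes were called higher) and lower for Eya1 by -1.72 (adjusted p = 0.00198; 27.9% lower). Tox3 was therefore high in Mycn-driven tumours too.

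Genes of the SHH pathway, which were not picked for varying between the Ptch1 models as Pdlim3 and Foxa2 were, are given beside them as a description. The mean over the 19 measured genes of a pathway and target list was 9.81 to 10.02 in EP, 10.30 in TF, 9.98 to 10.08 in Ptch1+/- and 9.86 to 10.17 in MERP, against 9.83 to 9.90 in GNPs, 7.63 to 7.88 in GTML and 7.74 to 7.85 in adult cerebellum. No list gene had a range of the 3 model means above that of Pdlim3 or Foxa2. Sfrp1, a secreted Wnt inhibitor and SHH target, equalled Eya1 (2.18), and Sfrp1, Nkx2-2 (1.85), a ventral neural tube factor, and Gli3 (1.69), the main repressor among the GLI proteins, exceeded Mfap4, against a list median of 0.67. Against GTML 15 of the 19 rose and 1 fell, with a median difference of 2.16 where that over all genes was -0.02. The targets Gli1 (5.57), Sfrp1 (6.61), Mycn (4.39), Hhip (2.71) and Ptch1 (2.16), the co-receptor Boc (4.02) and the precursor factor Atoh1 (5.52) were among the risers, and the co-receptor Cdon fell (-1.10). The mean Mycn signal of GTML was 7.83. Whether this probe set reads the Mycn overexpressed in those tumours was not tested, so it is no measure of their total Mycn. Against adult cerebellum 15 rose and 2 fell (median 1.78, all genes 0.02). Against GNPs 5 rose and 3 fell (median 0.25, all genes -0.02), with Atoh1 (1.22), Gli1 (0.91) and Ptch1 (0.80) among the former and Gli3 (-1.67) and Cdon (-1.19) among the latter, but 10 rose after the arrays were centred on the gene median and 7 after another quantile normalization.

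Between the models, 3 of the 19 were higher and 4 lower in MERP than in Ptch1+/- (25.9% and 6.08% of all genes), 5 higher and 7 lower in CRISPR than in Ptch1+/- (28.5% and 8.33%), and 1 higher and 2 lower in CRISPR than in MERP (8.20% and 5.15%). Ptch1 transcript was higher in MERP (1.19, limma adjusted p = 5.93e-05) and CRISPR (1.13, adjusted p = 0.000278) than in Ptch1+/-, in the same direction as Eya1 and Foxa2. Its signal was 12.75 to 13.24 in MERP, 12.78 to 13.09 in EP, 13.07 in TF and 11.50 to 12.26 in Ptch1+/-. Ptch1 is also the gene disrupted in each model, and the part of disrupted alleles in this signal was not tested. Sfrp1 was lowest in EP (10.32 and 10.96, against 12.37 in TF, 12.19 to 12.72 in MERP and 12.77 to 14.00 in Ptch1+/-), as Mfap4 was. In CRISPR, Sfrp1 was lower by -2.18 than in Ptch1+/- (limma adjusted p = 0.000198) and by -1.24 than in MERP (adjusted p = 0.0323), and Gli1 by -0.84 (adjusted p = 0.00897) and -0.86 (adjusted p = 0.0179). These counts moved with the scaling, to 2 higher and 8 lower for MERP and 3 and 11 for CRISPR against Ptch1+/- when arrays were centred on the gene median.

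**Figure D4:**
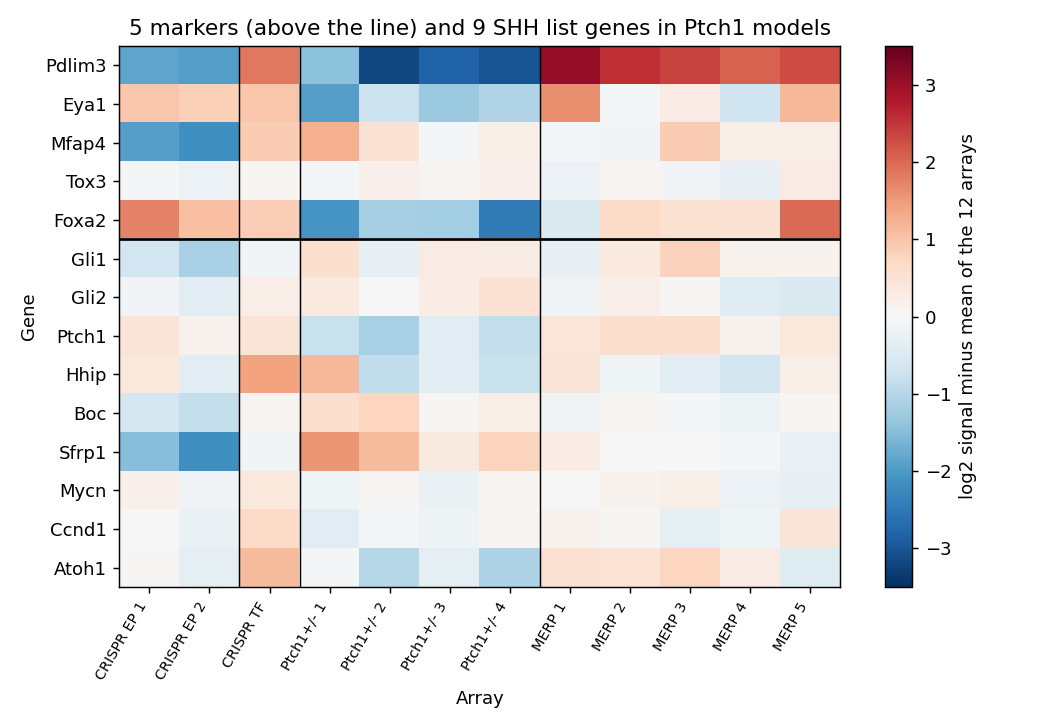
Log2 signal minus the mean of the 12 Ptch1 model arrays (colour) for the 5 described genes above the line and 9 genes of the SHH list below it (rows), by array (columns). Pdlim3 spans the widest range, Tox3 is near 0 throughout, and Sfrp1 and Gli1 are below the mean in both EP tumours, where Mfap4 is too.

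Families of the 5 genes did not simply follow them. For the counts below, the shares of all genes called higher and lower were 21.9% and 20.5% against GTML. They were 28.1% and 27.5% against adult cerebellum and 6.41% and 16.0% against GNPs. Between the models they were 25.9% and 6.08% for MERP and 28.5% and 8.33% for CRISPR against Ptch1+/-. For CRISPR against MERP they were 8.20% and 5.15%. Of 10 PDLIM relatives and Z-disc partners, 5 were higher and none lower in MERP than in Ptch1+/-, and Pdlim1 (1.55, limma adjusted p = 2.87e-05) and Pdlim4 (1.05, adjusted p = 0.0251), both LIM domain adaptors of the actin cytoskeleton, were nearest to Pdlim3 in direction. Centring on the gene median left 1 higher and 1 lower. Pdlim1 was also higher in CRISPR (1.31), but unlike Pdlim3 it was at about the same level in EP (8.91 and 9.10) as in TF (9.02). Against GTML 2 of the 10 rose and 6 fell (median -0.49, all genes -0.02), with the adaptor Pdlim7 lower by -2.84, against adult cerebellum 2 rose and 4 fell (median -0.19), with Pdlim2, which regulates NF-kappaB and STAT proteins, lower by -3.62, and against GNPs 1 rose and 4 fell (median -0.38). The muscle isoform of alpha-actinin, Actn2, and the Z-disc protein Ldb3 were not called between any pair of the models.

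Among 11 measured EYA proteins, their homeobox partners and DACH corepressors, Eya4 came closest to Eya1. This paralogue was higher in MERP (2.50, limma adjusted p = 2.53e-05) and CRISPR (2.34, adjusted p = 0.000126) than in Ptch1+/-, with 4.76 to 6.53 in Ptch1+/- and 7.05 to 8.92 in the other Ptch1 models, but unlike Eya1 it was higher than in adult cerebellum (3.18). The corepressor Dach1 had the same direction (1.10 and 1.57), but the former call was lost without any of MERP 1 to 4 or Ptch1+/- 3 or 4 (limma adjusted p = 0.0593 to 0.103) and the latter without the TF tumour (1.06, adjusted p = 0.0793). Eya2 and Eya3 were not called between the models. In all, 3 of 11 were higher in MERP than in Ptch1+/- (25.9% of all genes). In CRISPR 4 were higher and 1 lower (28.5% and 8.33% of all genes). Against GTML none rose and 3 fell, among them the homeobox genes Six4 (-2.56) and Six6 (-2.11), against adult cerebellum 3 rose and 2 fell, and against GNPs none rose and 5 fell, with Dach1 (-2.62) and Dach2 (-2.46) lowest. The medians over the list were -0.11, -0.05 and 0.04.

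Among 13 microfibril and elastic fibre genes, none had the pattern of Mfap4 in full. Against GNPs 8 fell and none rose (median -1.14, all genes -0.02), as Mfap4 did, led by the cross-linking enzyme Lox (-2.34), the fibrillin Fbn2 (-2.20) and the fibulin Fbln5 (-2.19). Against adult cerebellum 6 rose and 1 fell (median 0.48) and against GTML 5 rose and 4 fell (median -0.14). The lysyl oxidase paralogue Loxl1 rose in both, by 4.10 (limma adjusted p = 3.94e-09) and 2.63 (adjusted p = 6.74e-06), and was lower in the EP tumours (7.55 and 8.65) than in TF (10.58). Mfap2, another microfibril protein, did the opposite against GTML (-1.36). Between the models 3 were higher and 2 lower in MERP than in Ptch1+/-, 4 higher and 3 lower in CRISPR than in Ptch1+/-, and 3 higher and none lower in CRISPR than in MERP.

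Foxa1 and Foxa3, the other members of the FOXA family, were near background on every array, at 3.86 to 4.35 and 3.69 to 4.52, so that the Foxa2 signal had no counterpart in them. Of 14 genes of this family and of the floor plate, 1 rose and none fell against GTML (median -0.06), which was the axon guidance cue Ntn1 (4.86, limma adjusted p = 9.50e-14). Against adult cerebellum 2 rose and 6 fell (median -0.15), with Shh itself lower by -3.72 (limma adjusted p = 7.90e-15), and against GNPs none rose and 3 fell (median -0.11), led by the ciliogenesis factor Foxj1 (-2.64). Shh signal was 4.61 to 5.90 in all Ptch1 model tumours and 8.75 to 8.90 in adult cerebellum. Ntn1 did not follow Foxa2 between the models, being lower by -0.67 in MERP than in Ptch1+/- (limma adjusted p = 0.0397), a call lost with the mean of its probe sets (-0.29, adjusted p = 0.181) and without any of MERP 1 to 4 or Ptch1+/- 1, 2 or 4 (adjusted p = 0.0601 to 0.122). The list counted 1 higher and 1 lower in that comparison, 3 and none for CRISPR against Ptch1+/-, and 1 and none for CRISPR against MERP. Of the 3 TOX relatives, Tox lay between 4.13 and 5.71 on all arrays. Tox4 rose against GTML by 0.22 and Tox2 fell against adult cerebellum by a log2 difference of -0.67 (list medians -0.26 and -0.04), and Tox fell against GNPs by -0.84 (list median -0.11), whereas 2 of the 3 were higher in MERP and in CRISPR than in Ptch1+/- and Tox2 was higher in CRISPR than in MERP (0.85, limma adjusted p = 0.0405), a call lost under all 3 other scalings (adjusted p = 0.0512 to 0.0861).

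By likeness over the 12 Ptch1 model arrays, among 3895 genes with an SD of at least 0.5, the 3 genes nearest to Pdlim3 were 2310039H08Rik (r = 0.97), Lsp1 (0.96) and Sgf29 (0.95). Those nearest to Foxa2 were Dis3l (0.93), Zfp94 (0.93) and Nr3c2 (0.93), to Eya1 Rbms3 (0.96), Pth1r (0.94) and Lrrfip1 (0.94), and to Mfap4 Alg8, Btbd11 and Myo7a (0.91, 0.91 and 0.90). For Tox3, with little variation to match, they were Rps25, Zfp945 and Adamts1 (0.80, 0.78 and 0.77). The points share 4 tumour groups and a common normalization, so these values describe the group pattern. None of these neighbours matched the size of the differences, since 2310039H08Rik spanned 9.26 to 10.41 between model means where Pdlim3 spanned 6.47 to 11.56.

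Bulk RNA holds all cells of a sample, and more cells of a type cannot be told apart from more RNA per cell. Marker lists of 12 cell types were therefore set beside the 5 genes. The list of precursor markers had a mean of 10.65 to 11.13 in all 12 Ptch1 model tumours, 10.91 to 10.94 in GNPs, 6.44 to 7.44 in GTML and 7.87 to 8.05 in adult cerebellum, but single markers differed between the models. Atoh1 was higher (0.94, limma adjusted p = 0.00699, and 0.0533 after centring on the gene median) and Pax6, another precursor transcription factor, lower (-1.36, adjusted p = 2.12e-06) in MERP than in Ptch1+/-. Proliferation markers were at 11.27 to 11.77 in the Ptch1 models and at 5.29 to 6.15 in adult cerebellum. The EP tumours held more signal of other cerebellar cells than the rest, with Purkinje cell lists at 9.0 to 10.67 (TF 8.12, Ptch1+/- 5.35 to 6.07, MERP 5.35 to 5.74), mature granule neurons at 9.98 to 11.19 (TF 8.89, Ptch1+/- 8.35 to 8.65, MERP 7.59 to 8.35), oligodendrocytes at 7.70 to 7.75 (TF 6.09, Ptch1+/- 5.23 to 6.65, MERP 5.41 to 5.97), astrocytes at 11.17 to 11.24 (TF 10.88, Ptch1+/- 8.80 to 9.97, MERP 9.34 to 10.49) and microglia at 9.78 to 10.06 (TF 8.97, Ptch1+/- 6.80 to 8.75, MERP 7.33 to 8.24). All 6 Purkinje markers and 7 of 8 microglia markers were higher in CRISPR than in Ptch1+/- (28.5% of all genes). The EP tumours, highest in these lists, were lowest in Mfap4 among the Ptch1 models, and the part of other cells in the levels of the 5 genes was not tested.

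Fibroblast and muscle lists bore on Mfap4 and Pdlim3, which such cells express. The meninges and fibroblast list was at 10.16 to 10.49 in GNPs, where Mfap4 was highest. Of its 9 genes 8 were lower in the Ptch1 models than in GNPs (16.0% of all genes). Endothelial cells (9.15 to 9.76, 8 of 8 genes lower in the models) and choroid plexus (9.46 to 10.21, 6 of 8 lower) were also highest in GNPs, and the part of these cells in the Mfap4 level of GNPs was not tested. Within the Ptch1 models the fibroblast list was at 7.63 to 7.87 in EP, 8.51 in TF, 6.33 to 7.56 in Ptch1+/- and 6.32 to 6.91 in MERP, and its part in the Mfap4 differences was not tested. For Pdlim3, the skeletal muscle list was at 4.86 to 5.39 in every Ptch1 model tumour except MERP 5, at 6.19, with Acta1 at 8.03, Mylpf at 7.34 and Myl1 at 6.93. Pdlim3 was at 11.37 in that tumour and at 11.16 to 12.16 in the other MERP tumours, whose muscle list was at 4.97 to 5.39. Pericyte and smooth muscle markers were at 6.14 to 6.78 in MERP, 6.42 to 6.72 in Ptch1+/-, 6.86 to 6.96 in EP and 7.39 in TF, with none of 8 higher and 2 lower in MERP than in Ptch1+/-.

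**Figure D5:**
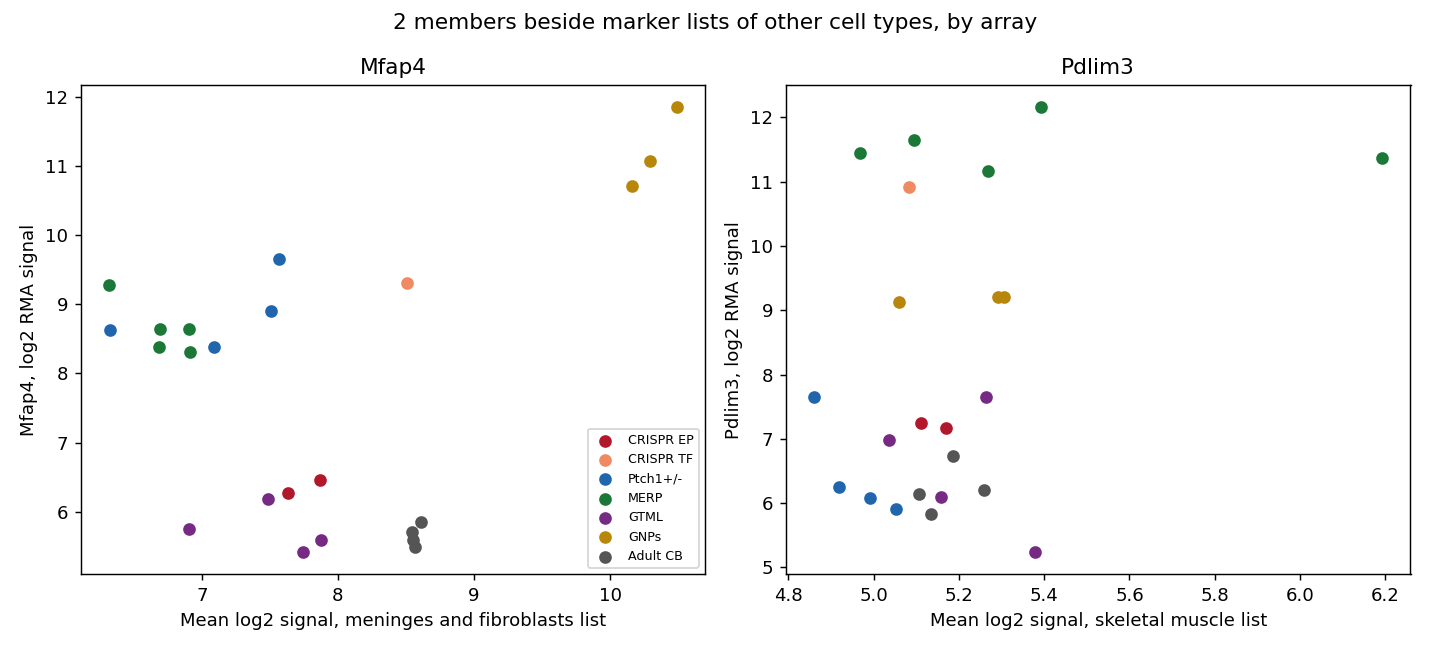
Log2 signal of Mfap4 against the mean log2 signal of the meninges and fibroblasts list (left) and of Pdlim3 against that of the skeletal muscle list (right), with 1 point per array coloured by group. GNPs are highest for both Mfap4 and the fibroblast list, while among tumours EP lies low in Mfap4 with a list mean of 7.63 to 7.87, and the MERP tumours have Pdlim3 between 11.16 and 12.16 with a muscle list between 4.97 and 6.19.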

How the data were processed

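Values were deposited by the authors as log2 signal, computed from Affymetrix CEL files with Expression Console 1.3.1 by RMA. Which arrays were normalized together is not given in the sources used here. No value was missing and no column was left unused. The number of arrays limits the precision, and no detection calls were at hand. RMA compresses differences near background.

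Of 45101 probe sets, 34958 carried 1 gene symbol (34754 updated through their Entrez identifier), 932 several and 9211 none. A gene with several probe sets was represented by the brightest on average, which gave 18194 genes. The 23 arrays entered 1 linear model of 6 groups (limma 3.58.1, R 4.3.3), EP and TF pooled, with Benjamini-Hochberg adjustment over all genes of a comparison. The Ptch1 models were the mean of 3 group means. Tests were checked on simulated data. The most alike arrays shared 0.106% of their values, so none was a copy.

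The 5 genes and the gene lists were chosen with earlier results of these data known. Named list genes were the nearest relatives of a member, genes called in most comparisons of a section and those with the lowest adjusted p in each direction; some of these appear only in counts. Trp53 was not analysed here. Alternatives were scaling, probe set choice, a filter on dim genes (10986 kept), variance models, the groups fitted, EP or TF alone, tumour weights, the replicate number and leaving out each array.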

Additional observations from a re-analysis of the deposited data

Results flagged for a closer look

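Adult cerebellum replicate 4 had a Foxa2 signal of 5.19, set apart from the other 3 adult samples, whose highest value was 4.68. The gap made up 0.895 of the group's range, above the critical value of 0.829 for 4 samples. It was the sole such value in 28 groups of probe set values examined, and chance gives about 1 in 20. It remained below every Foxa2 value of the Ptch1 models.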

How the results depend on the processing

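Taken as the mean of the Ptch1 models, Foxa2, Mfap4, Tox3 and Pdlim3 stayed higher than in GTML and adult cerebellum. Mfap4 and Eya1 stayed lower than in GNPs. Each passed the threshold in all 37 alternatives run for it. For Pdlim3, the EP and Ptch1+/- arrays overlapped GTML, and the Ptch1+/- arrays overlapped adult cerebellum. Calls that changed are given with adjusted p from limma, and no cause was tested. Eya1 in GNPs minus adult cerebellum was 0.47 to 0.78 over the alternatives other than leaving out arrays. It passed in 2 of them (lowest adjusted p = 0.000524). Tox3 against GNPs passed after centring on the gene median (0.66, adjusted p = 0.00566), with array weights (0.38), whose fit stopped before full convergence, and with only the groups compared (0.38); leaving out single arrays gave 0.33 to 0.41. Pdlim3 against GNPs was -0.80 with array weights and 0.47 with TF as the sole CRISPR tumour, and array weights called 4 of the 4 genes tested there in place of 2. Eya1 against adult cerebellum was -0.18 with the mean of its probe sets and -0.97 with TF alone, and -1.08 to -0.88 on leaving out arrays; against GTML leaving out arrays gave 0.35 to 1.20.

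Directions that turned were all of small or untested differences. With TF alone as CRISPR, Mfap4 was 0.41 above Ptch1+/- and 0.65 above MERP, and Tox3 0.11 above MERP. Eya1 in CRISPR minus MERP was -0.17 with the mean of its probe sets. Foxa2 in GNPs minus adult cerebellum was -0.17 after centring on the gene median and -0.068 (without GNPs 2) to 0.19 on leaving out arrays, and in GTML minus GNPs -0.018 (without GTML 2) to 0.28. GTML minus adult cerebellum was -0.13 to 0.68 for Pdlim3 and -0.076 to 0.18 for Mfap4, the lowest without GTML 4. Mfap4 in MERP minus Ptch1+/- was -0.41 to 0.015 (without Ptch1+/- 1), and Tox3 in CRISPR minus MERP -0.095 to 0.057, above 0 without EP 2, MERP 2 or MERP 5.

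Counts over all genes depended on scaling. Centring on the gene median called 8126 genes against GNPs in place of 4075 (79.0% of them higher in place of 28.6%), 11923 in place of 7603 for GTML against GNPs (78.2% in place of 38.6%), 10084 in place of 6704 for CRISPR against Ptch1+/- (20.7% in place of 77.4%) and 4115 in place of 2428 for CRISPR against MERP (22.96% in place of 61.4%), and for MERP against Ptch1+/- turned 81.0% higher into 40.4%. It moved the share higher against GTML from 51.7% to 35.7%, for GTML against adult cerebellum from 49.4% to 62.9% and for GNPs against adult cerebellum from 58.1% to 41.8%. Centring on all probe sets gave 88.4% for MERP against Ptch1+/- and 49.9% for CRISPR against MERP, and the probe set with the highest SD 69.5% for the former. Array weights called 9704 against GNPs, TF alone 4074 against Ptch1+/- and 490 against MERP, the latter 1109 without EP 1 and 1123 without EP 2, and without GNPs 2 or 3 there were 2642 or 2648.

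Same-numbered samples of different groups did not deviate together (median r -0.004 over 46 pairs), so the numbers do not pair samples. A fit with the replicate number as a block, without TF, changed no call on the 5 genes; Pdlim3 against GTML, for example, was 1.95.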
